A study of Oryza sativa with 6 samples.

Results

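Among transcripts of rice seed embryonic axes, 34 were at log2 5 or more on every array after ageing at 40 °C. The same 34 had a low mean signal after ageing at 45 °C. They were selected on the expression values themselves. A probe set, the group of probes that reports 1 transcript on the array, had to match exactly 1 gene and to have all 3 values after 40 °C at log2 5 or more. Its mean after 45 °C had to be below 4, with every value after 45 °C below every value after 40 °C. Of 22436 probe sets with 1 gene (17905 genes), 34 met the rule, which is 0.152%, and they belonged to 34 genes. The contrast between the temperatures chose these transcripts, so their differences are described here without a test.

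The arrays compared 2 groups of mature seeds of Oryza sativa cultivar Nipponbare, with 3 arrays each. All seeds were first held for 3 days at 25 °C and 85% relative humidity. They were then kept for 14 days at 85% relative humidity, either at 40 °C or at 45 °C, and lastly for 3 days at 25 °C and 32% relative humidity. The duration of the warm treatment is 15 days elsewhere in the labels. The Affymetrix Rice Genome Array was hybridised with labelled RNA amplified from 50 ng of total RNA of the embryonic axis. A control without the warm step was not analysed here. The labels leave the origin of the replicates unstated, so p-values here measure only how these samples vary, and that variation may be technical. In these bulk extracts, fewer cells with a transcript and less of it per cell cannot be told apart.

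Dry seeds hold messenger RNA that was stored during maturation and can be translated once water is taken up. Stored RNA is not renewed while the seed is dry, and it fragments and oxidises as seeds age. The temperature and the moisture of the air both speed up the ageing of seeds.

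The opposite rule selected no transcript. With the groups swapped, 0 of 22436 probe sets with 1 gene (0%) were at 5 or more on every array after 45 °C and below 4 on average after 40 °C. Over all non-control probe sets, whether or not a gene is listed, 50 met the rule and 1 met the opposite rule. The 1 probe set has a name that begins with RPTR and no listed gene. Only names that begin with AFFX were counted as controls, so whether this probe set reports a rice transcript was not examined. Its values were 3.80, 3.45 and 3.14 after 40 °C and 5.05, 5.19 and 5.01 after 45 °C. The other 16 probe sets that met the rule had no single gene and are not described further.

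The same asymmetry appeared in a wider count that served as a check on regression to low values. Of 10953 probe sets with every value after 40 °C at 5 or more, 464 (4.24%) had a mean below 5 after 45 °C, and their median difference (45 °C minus 40 °C) over all 10953 was -0.27. Of 9989 probe sets with every value after 45 °C at 5 or more, 50 (0.501%) had a mean below 5 after 40 °C. The median of 40 °C minus 45 °C over these 9989 was 0.22. Median centring of the arrays gave 286 of 10701 and 104 of 10229 for these counts. They were 367 of 10842 and 68 of 10107 after a further quantile normalization, and 456 of 10864 and 49 of 10005 after cyclic loess. Scaling also moved the median log2 difference (45 °C minus 40 °C) of the probe sets with a mean of at least 4, from -0.17 as deposited to 0.09 with centring, 0.01 with quantile normalization and -0.02 with cyclic loess.

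Looser and stricter limits gave the same order of the directions. With a minimum of 4.5 in the high group and the limit of 4 in the low group, 113 probe sets were selected as high after 40 °C and 3 as high after 45 °C. With a minimum of 5 and a limit of 4.5, the counts were 116 and 3. With a limit of 3.5 they were 7 and 0. With a minimum of 5.5 and a limit of 4 they were 7 and 0, and with a minimum of 6 they were 4 and 0. These counts overlap in their probe sets and are not separate support for each other.

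**Figure D1:**
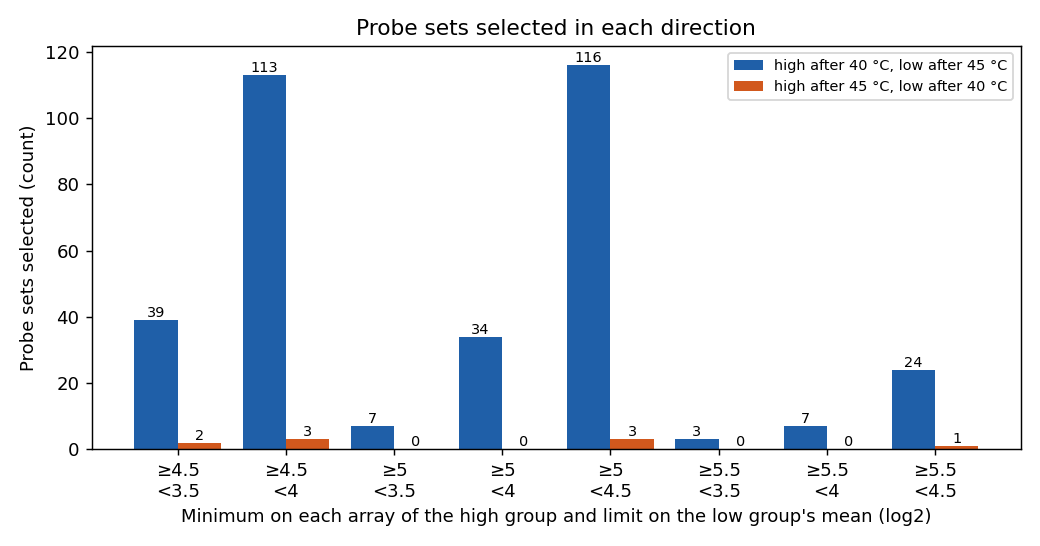
Number of probe sets selected (vertical axis, count) for pairs of limits on the log2 values (horizontal axis). Blue bars count those high after 40 °C and low after 45 °C, and orange bars the opposite; at the limits used here they stand at 34 and 0.

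**Figure D2:**
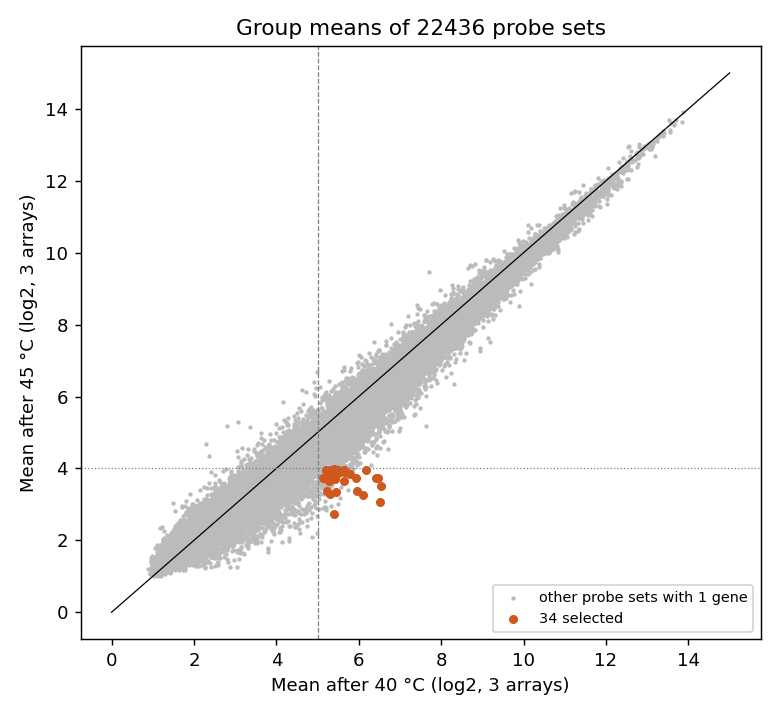
Mean log2 value after 40 °C (horizontal axis) and after 45 °C (vertical axis), each over 3 arrays, for 22436 probe sets with 1 gene. The 34 selected transcripts (orange) lie right of the dashed line at 5 and under the dotted line at 4, with means after 45 °C of 2.72 to 3.98; the solid line marks equal means.

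The word floor describes the level of these transcripts after 45 °C poorly. Control probe sets for bacterial and tag sequences, 59 in all, had medians of 1.73 to 1.82 on the 45 °C arrays and reached at most 3.15, 3.06 and 3.30. On the 40 °C arrays the same controls were lower, with medians of 1.56 to 1.59 and highest values of 2.76, 2.85 and 2.90. Of the 102 values of the 34 transcripts after 45 °C, 82 were above the highest such control of the same array. In 19 transcripts all 3 values were above it, and in 15 at least 1 was not. Probe sets differ in how strongly they bind, so this places the values among the array's dim signals without measuring a level of 0. On every array, about the same share of all non-control values, 60.8 to 61.7%, was below 4. Over the probe sets with 1 gene, which the rule draws on, the arrays were not level. Their medians were 5.28, 5.47 and 5.30 after 40 °C and 4.97, 4.93 and 4.98 after 45 °C. What part this shift has in the selection was not tested.

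The gap between the lowest value after 40 °C and the highest after 45 °C was over 2 log2 units in 3 transcripts, known here only by locus number. LOC4346301 had values of 6.46, 6.83 and 6.31 after 40 °C and 3.97, 2.90 and 3.66 after 45 °C. Its means were 6.53 ± 0.26 (SD, n = 3) and 3.51 ± 0.55 (SD, n = 3), or 8.11-fold higher after 40 °C. LOC4341092 had 6.64, 6.53 and 6.09 against 3.62, 3.89 and 3.65, a log2 difference (45 °C minus 40 °C) of -2.70. LOC4330904 had 6.20, 6.43 and 6.74 against 3.598, 4.005 and 3.57, a log2 difference of -2.73. In each of the 3, the highest array after 45 °C lay far below the lowest after 40 °C. None of the files used here describes what these genes do.

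The next 7 transcripts by gap included the largest difference of the 34. LOC4340097 had values of 6.50, 6.67 and 6.40 after 40 °C and 4.68, 1.82 and 2.69 after 45 °C, a log2 difference of -3.46, or 10.98-fold. Its arrays after 45 °C spread widely (SD 1.47, n = 3), with replicate 1 far above the others. LOC4337508 had 5.34, 5.84 and 5.01 against 2.64, 3.18 and 2.35, a log2 difference of -2.67. LOC4348544 had 5.81, 6.69 and 5.77 against 3.31, 4.08 and 2.37, a log2 difference of -2.84. LOC4331718 had 5.74, 6.12 and 5.98 against 4.03, 2.03 and 4.04, with replicate 2 alone far below 4 after 45 °C. LOC4350829 had 5.65, 5.82 and 5.44 against 3.41, 3.83 and 3.71, a tight pair of groups with SDs of 0.19 and 0.22 (n = 3 each). LOC4327312 and LOC4325146 had smaller log2 differences of -1.87 and -1.44, and all of their values after 45 °C were below 4.

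Over the 34 transcripts, the log2 difference (45 °C minus 40 °C) had a median of -1.71 and ran from -3.46 to -1.23, against a median of -0.17 over the 22214 probe sets with a mean of at least 4. As folds these are 2.35 to 10.98, and 10 of 34 were 4-fold or more. Means ran from 5.14 to 6.53 after 40 °C, with 28 of 34 below 6, and from 2.72 to 3.98 after 45 °C, with 27 of 34 at 3.5 or more. Most of the transcripts therefore lay close to both limits of the rule. The gap between the lowest value after 40 °C and the highest after 45 °C had a median of 0.89 and was 1 or more in 14 transcripts and under 0.5 in 6.

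**Figure D3:**
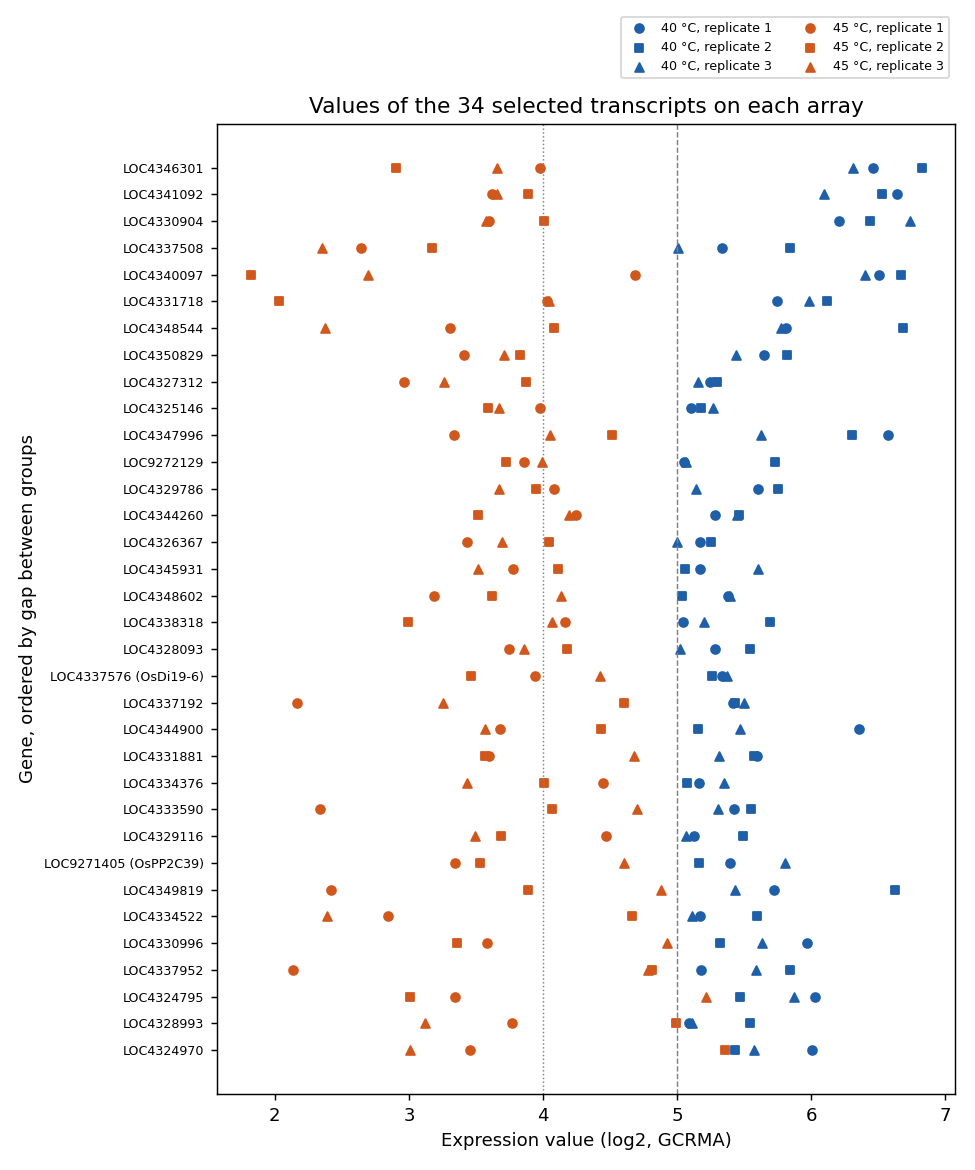
Log2 value of each of the 34 transcripts (rows) on each of the 6 arrays, blue after 40 °C and orange after 45 °C, with the replicate given by the marker. Lines mark the limits of 5 (dashed) and 4 (dotted), and the rows are ordered by the gap between the groups, from 2.34 at the top to 0.08 at the bottom.

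A low mean after 45 °C did not stand for 3 low arrays in most cases. All 3 values were below 4 in 7 transcripts, namely LOC4346301, LOC4341092, LOC4337508, LOC4350829, LOC4327312, LOC4325146 and LOC9272129. In 20 transcripts 2 of the 3 values were below 4, and in 7 only 1 was. These 7 were LOC4331718, LOC4347996, LOC4344260, LOC4338318, LOC4334376, LOC4333590 and LOC4337952. LOC4337952 had 2.14, 4.81 and 4.78 after 45 °C, and LOC4333590 had 2.34, 4.06 and 4.70, so that replicate 1 set the low mean in both. An array after 45 °C was at 4.5 or more in 13 transcripts, and at 5 or more in 2, LOC4324970 (5.36 on replicate 2) and LOC4324795 (5.21 on replicate 3).

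The arrays after 45 °C disagreed more than those after 40 °C for 27 of the 34 transcripts (79.4%). The median SD was 0.53 after 45 °C and 0.27 after 40 °C. Among the 22214 probe sets with a mean of at least 4, the SD was larger after 45 °C in 50.2%, and among the 738 of these with a mean below 4 after 45 °C in 53.3%. The rule sets a fixed limit for every single value after 40 °C. After 45 °C it sets one for the mean, and single values need only be below the lowest after 40 °C. The difference in spread was therefore not tested. No array after 45 °C was low throughout. Replicate 1 held the lowest value in 12 transcripts, and replicates 2 and 3 in 11 each, while replicate 2 held the highest in 16. Over the 34 transcripts, array medians were 5.40, 5.55 and 5.44 after 40 °C and 3.60, 3.88 and 3.68 after 45 °C.

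OsDi19-6 (LOC4337576) and OsPP2C39 (LOC9271405) were the 2 selected genes with a name other than a locus number. Such names belonged to 5.88% of the selected genes and to 13.7% of all 17905 genes. Di19 genes encode zinc-finger proteins known from Arabidopsis for their link to drought and salt responses. OsDi19-6 had values of 5.33, 5.26 and 5.37 after 40 °C and 3.94, 3.46 and 4.42 after 45 °C. Its means were 5.32 ± 0.05 (SD, n = 3) and 3.94 ± 0.48 (SD, n = 3), a log2 difference of -1.38. The groups did not overlap, which the rule requires of every selected transcript. Of the other Di19 genes, 5 had a probe set with a mean of at least 4. The log2 differences of their 6 probe sets ran from -0.54 to 0.24 with a median of -0.20, 5 of them below 0, and none had a mean below 4 after 45 °C.

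OsPP2C39 belongs to the type 2C protein phosphatases, a family in which some members hold back abscisic acid signalling, the hormone pathway of seed dormancy and drought. Its selected probe set had values of 5.39, 5.17 and 5.81 after 40 °C and 3.34, 3.53 and 4.60 after 45 °C, a log2 difference of -1.63. Replicate 3 after 45 °C came within 0.56 of the lowest array after 40 °C. The name of this probe set ends in _s_at, a type that can match other transcripts. Another probe set of the gene was dim in both groups, with means of 1.79 after 40 °C and 1.44 after 45 °C. The other 54 tested probe sets of this family had a median log2 difference of -0.18, with 40 below 0 and 14 above. Their range was -1.38 to 0.64, and 3 of them had a mean below 4 after 45 °C. These 3 belong to OsPP2C66, OsPP2C54 and OsPP2C75, with log2 differences of -1.38, -1.24 and -0.29.

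Apart from this phosphatase, none of the 34 genes appeared in the lists of stress and growth genes drawn up by symbol. The list of kinases and phosphatases held 1 of the 34 among 125 genes. The lists of heat shock genes (45), late embryogenesis genes (7), transcription factors (214), calcium sensors (33), auxin genes (58), redox genes (58), transporters (91) and cell division genes (78) held 0. Their median log2 differences lay between -0.29 and -0.10. Only the 2 selected genes with a name could appear in such lists, so the counts of 0 say nothing about the others. These lists leave most of the selected genes undescribed. Nor did the 34 genes sit together on the genome: no pair were neighbours in gene order, and the closest pair, LOC4348544 and LOC4348602, had 84 genes between them.

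Other probe sets of the same genes differed far less between the temperatures. They use the same arrays and the same contrast, so they are given as values. The selected probe sets were chosen for a large difference in this contrast, so smaller differences in the others follow in part from that choice. Of the 34 genes, 15 had another probe set and 19 had none. Of the 21 other probe sets, 16, in 12 genes, had a mean of at least 4. Their median log2 difference was -0.41, against -1.90 for the selected probe sets of the same 12 genes, and 13 were below 0 and 3 above. That median depended on scaling: it was -0.15 with median centring, -0.22 with quantile normalization and -0.27 with cyclic loess. In 3 of the 16, every value after 45 °C was below every value after 40 °C, which is close to the share of all tested probe sets (17.8%). None of the 16 had a mean below 4 after 45 °C, and 14 had a mean of 5 or more.

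LOC4347996, LOC4324795 and LOC4325146 were the genes with another probe set of mean 4 or more without overlap. The selected probe set of LOC4347996 had 6.57, 6.30 and 5.62 after 40 °C and 3.34, 4.52 and 4.05 after 45 °C. Another had 6.86, 7.07 and 6.50 against 5.52, 5.77 and 5.01, a log2 difference of -1.38 without overlap, and a further one of -0.97 with overlap. In LOC4324795 and LOC4325146 the log2 differences of that probe set were -1.20 and -0.44, against -1.93 and -1.44 in the selected one. For LOC4325146 that probe set had 10.11, 9.98 and 10.17 against 9.52, 9.69 and 9.73.

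In the 9 other genes with such a probe set, the groups overlapped. The other probe set of LOC4340097 had 8.47, 8.23 and 8.66 after 40 °C and 8.02, 8.38 and 8.10 after 45 °C, a log2 difference of -0.29 against -3.46 in the selected one. LOC4330904 had 2 other probe sets, with log2 differences of -0.37 and -0.38 against -2.73. For LOC4337192 the values were -0.30 against -2.11, and for LOC4337508 -0.82 against -2.67. LOC4327312 and LOC4345931 were higher after 45 °C in their other probe set, by 0.36 and 0.86, with overlapping groups. LOC4337952 had 1 other probe set on either side of 0, at -0.51 and 0.22. LOC4329786 had another at -0.55, with overlap. LOC4334376 had 2 at -0.32 and -0.65, both with overlap. The 5 other probe sets with a mean under 4 had log2 differences of -0.50 in LOC4348544, -0.35 in OsPP2C39, -0.18 in LOC4329786, 0.04 in LOC4330996 and 1.08 in LOC4334376. The last was higher after 45 °C without overlap, with 3.07, 3.36 and 3.93 after 40 °C and 4.76, 4.45 and 4.39 after 45 °C. Whether the probe sets of a gene report different parts or forms of its transcript was not tested, because probe sequences were not used here.

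**Figure D4:**
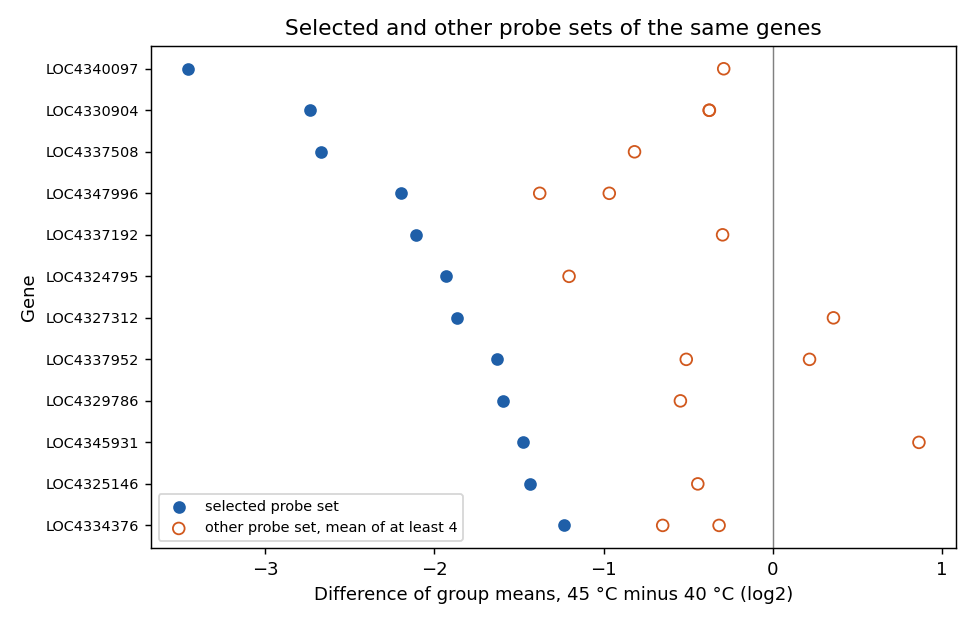
Log2 difference between group means, 45 °C minus 40 °C (horizontal axis), for the selected probe set (filled) and the other probe sets with a mean of at least 4 (open) of 12 genes. All 16 open points lie to the right of the filled point of their gene, from -1.38 to 0.86. Filled points were selected on this contrast and open points were not, so this order follows in part from the selection.

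The types of probe set are given as shares, without a test. Names ending in _a_at, which mark probes shared by transcripts of 1 gene, made up 5 of the 34 (14.7%) and 5.64% of all probe sets with 1 gene. Names ending in _x_at or _s_at, which mark probes that can match other transcripts, made up 4 and 2 of the 34 (11.8% and 5.88%), against 8.79% and 5.29%. Without the last 2 types, 28 of the 34 remained.

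Seen in the model fitted to all 22214 probe sets with a mean of at least 4, none passed at a Benjamini-Hochberg adjusted p of 0.05 with limma (0%), and none of the 34 did. All 34 were among those tested, with adjusted p between 0.108 and 0.257. Without adjustment, 4256 had a p under 0.05, of which 3062 (13.8% of those tested) were lower and 1194 higher after 45 °C, and all 34 were among the lower ones. That split depended on scaling: median centring gave 1067 lower and 3229 higher, quantile normalization 1467 and 2096, and cyclic loess 1909 and 1501. It also depended on the filter: over all 57258 non-control probe sets, 4137 were lower and 5813 higher. Groups without overlap, with 45 °C lower, were found in 3962 of the tested probe sets (17.8%), where the rule requires it of every selected transcript. With array weights 193 probe sets passed (0.869%), including 16 of the 34. Without replicate 2 after 40 °C 67 passed (0.301%), including LOC4346301, LOC4341092 and LOC4330904. The rule used the same contrast, so nothing is read from these shares.

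Near the limits, small differences decided selection. LOC4326367, LOC4337508 and LOC4328093 were just inside, with lowest values after 40 °C of 5.0003, 5.0055 and 5.02. LOC4327698, LOC4351903 and LOC4349080 were just outside, at 4.98, 4.95 and 4.95. At the other limit, LOC4344260, LOC4347996 and LOC4334376 were inside with means after 45 °C of 3.98, 3.97 and 3.96, and LOC4345186, LOC4326976 and LOC9268989 were outside at 4.002, 4.02 and 4.02. LOC4325943 and LOC4346114 met both limits but overlapped between groups. LOC4346114 had 1.79, 7.05 and 1.38 after 45 °C, against 5.19, 6.60 and 5.46 after 40 °C.

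The remaining selected transcripts had gaps of 0.08 to 1.05. LOC4344900 had 6.35, 5.16 and 5.47 after 40 °C and 3.68, 4.43 and 3.57 after 45 °C. LOC4349819 had 5.72, 6.63 and 5.43 against 2.42, 3.89 and 4.88, a log2 difference of -2.20 with a gap of 0.55. LOC4334522 had 5.17, 5.598 and 5.11 against 2.84, 4.66 and 2.39. A single high array set the spread after 40 °C in LOC4344900 and after 45 °C in LOC4334522, while the arrays of LOC4349819 after 45 °C were spread evenly. LOC4328993 and LOC4324970 had the narrowest gaps, 0.09 and 0.08. The log2 differences of LOC4329786, LOC4348602, LOC4331881, LOC4329116 and LOC4330996 were -1.60, -1.62, -1.55, -1.35 and -1.69.

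Several measures of the arrays moved with the groups or set 1 array apart. The bioB control, a transcript added in a fixed amount at hybridisation, had means over its 9 probe sets of 7.93, 6.66 and 6.87 after 40 °C and 8.68, 8.76 and 8.49 after 45 °C. The groups did not overlap, and the exact two-sided permutation p was 0.1, the smallest that 3 against 3 allows. The bioC control, added in the same way, also separated the groups, with 11.93, 10.71 and 11.11 after 40 °C and 12.19, 12.20 and 12.09 after 45 °C (exact permutation p = 0.1). The cre control, near the top of the scale, differed by 0.05. The mean 3-prime minus 5-prime difference of 5 rice control transcripts was 2.99 on replicate 2 after 40 °C and 1.66 to 2.03 on the 5 other arrays. Its group difference (45 °C minus 40 °C) was -0.43 (exact permutation p = 0.5), and -0.04 without that array. Replicate 2 held the highest value of its group in 19 of the 34 transcripts (55.9%), against 44.8% of the tested probe sets. Extracted RNA was 58.7 ± 8.14 µg (SD, n = 3) after 40 °C and 48.7 ± 7.02 µg (SD, n = 3) after 45 °C (exact permutation p = 0.3). What part these measures have in the result was not tested.

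**Figure D5:**
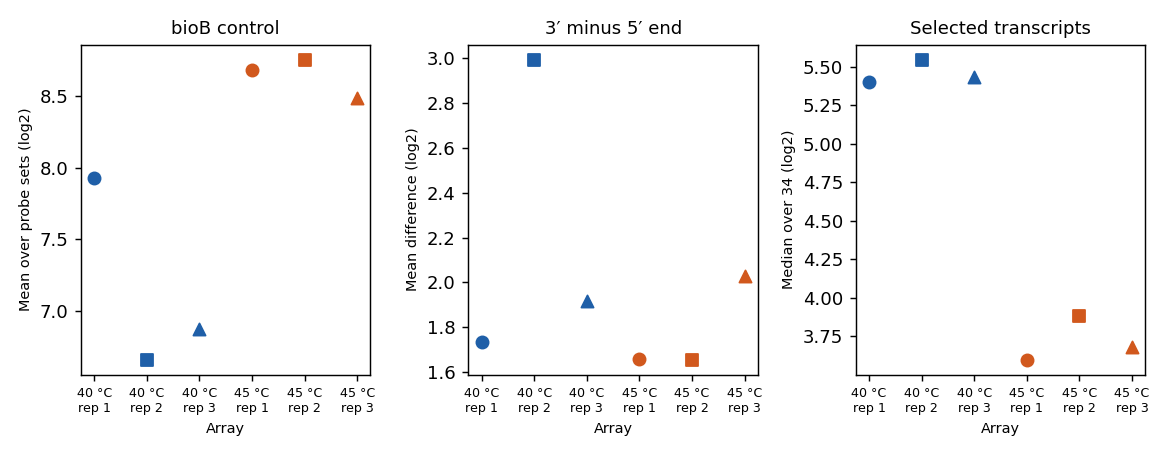
Values on each array (horizontal axis) of the bioB control (left, mean log2), the 3-prime minus 5-prime difference of rice control transcripts (middle, log2) and the median of the 34 transcripts (right, log2); axes do not start at 0. The bioB control is higher on all arrays after 45 °C, the 3-prime minus 5-prime difference stands out on replicate 2 after 40 °C at 2.99, and the medians of the 34 are between 3.60 and 5.55.

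The embryo markers were high on every array, and signal of endosperm markers was present too, although the labelled tissue is the embryonic axis. Of 13 embryo and maturation names 8 genes matched, all with a mean of at least 4, and the list's log2 sum was 15.78 to 15.89 after 40 °C and 15.73 to 15.80 after 45 °C. Of 14 endosperm names 8 matched, 7 with a mean of at least 4, and the log2 sum was 13.35 to 13.46 after 40 °C and 12.95 to 13.51 after 45 °C. The glutelin gene GluB4 alone of these was near background, between 1.17 and 1.38. A sum is weighted to the brightest genes, here pinA at 12.49 to 12.58 after 40 °C, and the endosperm medians varied more. They were 9.31, 7.74 and 9.48 after 40 °C and 8.41, 9.89 and 9.65 after 45 °C. Replicate 2 after 40 °C was the lowest, with GluA-1 at 6.96 against 8.70 and 9.08 on the other arrays of its group. Aleurone amylase genes, 3 of 7 names, had log2 sums of 6.77 to 7.67 after 40 °C and 7.11 to 7.77 after 45 °C. The green tissue list, 2 of 5 names, had log2 sums of 5.38 to 5.63 after 40 °C and 3.76 to 5.77 after 45 °C, with CAB2R at 2.72 or below on all arrays. The ranges of the groups overlapped for all 4 lists, and their part in the result was not tested. None of the marker genes was among the 34.

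The size of the selection depended on scaling and on single arrays. Median centring, which raised the arrays after 45 °C relative to those after 40 °C, left 11 of the 34, with 0 for the opposite rule. Quantile normalization left 26, and cyclic loess selected 42, all 34 among them, again with 0 for the opposite rule. With 1 array left out, and so 1 value fewer to satisfy, the rule selected 48 to 63 probe sets and the opposite rule 0 to 4. Of the 34, 23 remained without replicate 1 after 45 °C, 27 without replicate 2 and 28 without replicate 3.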

How the data were processed

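Each array has log2 values for all its probe sets, as the authors deposited them. The submitters' processing notes name GCRMA, without a version; whether all arrays were normalised together is unknown here. GCRMA corrects background from probe sequence, so values near background depend on that model. No detection calls were used. Columns were assigned to samples by their names.

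The members and lists were chosen with earlier results of these data known. Genes come from the platform annotation and names from the gene table of assembly ASM3414082v1 (34 of 34 matched); no coordinates are given. Probe sets with a mean of at least 4 were fitted with limma 3.58.1 in R 4.3.3 (intensity trend, temperature as the only term, Benjamini-Hochberg adjustment); the step was tested on simulated data. Named were, by rule, genes with a name, the 10 of largest gap, those next to each limit and those with another probe set of mean 4 or more; the remaining selected genes were added after their values were seen. Motifs, promoters and proteins were not analysed here. Samples sharing a replicate number were not treated as pairs. The number of arrays limits the precision. Array quality measures were tested by exact permutation (two-sided). Alternatives were other limits, scalings, filters, array weights, a replicate block and leaving out each array.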

Additional observations from a re-analysis of the deposited data

How the results depend on the processing

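The count of 34 was 4 with a high level of 6 or more, 113 with 4.5 or more, 7 with a low mean below 3.5, 1 with a low mean below 3, 11 after median centring and 7 with every low value below 4, an alternative chosen after seeing the data. It was 48 to 63 when 1 array was left out in turn, with fewer values to satisfy the rule. The opposite rule gave 3 with 4.5 or more, 1 over all non-control probe sets and 0 to 4 when 1 array was left out; with wider limits it gave up to 7 (a minimum of 4 and a limit of 3.5). Of 340 differences of the 34 transcripts under 10 alternatives, 18 moved by 1 SD or more; their sign is fixed by the rule or nearly so. With values below 4 set to 4, their median was -1.25 instead of -1.71. The median difference of the other probe sets of these genes was -0.41, between -0.27 and -0.15 under 3 scalings and between -0.46 and -0.38 with each array left out, all chosen after seeing the data. The 3-prime minus 5-prime difference and the RNA mass kept their direction with each array left out. The 3-prime minus 5-prime difference nearly vanished without replicate 2 after 40 °C, at -0.04 instead of -0.43. The limma count of 0 became 193 with array weights and 67 without replicate 2 after 40 °C (0 to 67 over the 6 arrays left out). That array had a weight of 0.34, against 1.32 and 3.74 for replicates 1 and 3 after 40 °C. It correlated with them at 0.927 and 0.935, and they correlated with each other at 0.98. The cause of the change in count was not tested. With the replicate block it was 0, with a smallest adjusted p of 0.283. Deviations of same-numbered samples correlated at -0.14 to 0.03, and those of differently numbered samples at -0.16 to 0.13. With 3 arrays in each group, this cannot decide whether the numbers pair the samples. Without detection calls, signal near background limits how far a value below 4 can be read.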
